A study of Ovis aries with 115 samples.

Results

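The 100 genes described here had the largest ratios between the expression levels of sheep breeds in the cervix. The level of a gene in a breed was the mean of its 3 state means in CPM (the reads of a gene scaled by the total counted reads of a library). Genes were ranked by the highest breed level plus 0.1 CPM over the lowest breed level plus 0.1 CPM. Of 27054 annotated genes, 15076 had a highest breed level of 1 CPM or more, and the top 100 of these were kept, with the mitochondrial gene COX-1 left out of the ranking. The breed levels therefore chose the genes, and the breed differences below are descriptions without a test.

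The libraries came from the cervix of ewes, 1 library per ewe, of 2 Irish breeds and 2 Norwegian breeds. The Irish breeds were Suffolk (29 ewes, low fertility after cervical insemination with frozen-thawed semen) and Belclare (30 ewes, medium fertility). The Norwegian breeds were Fur (27 ewes) and Norwegian White Sheep, labelled Norwegian and called NWS here (28 ewes), both of high fertility. Each breed was sampled in 3 states, which were the follicular phase of an induced (hormonally synchronised) cycle, the follicular phase of a natural cycle, and the luteal phase of an induced cycle. In that order of states there were 10, 10 and 10 Belclare ewes, 11, 8 and 10 Suffolk ewes, 8, 10 and 9 Fur ewes, and 10, 10 and 8 NWS ewes. Breed and country cannot be told apart in this design, since each breed was sampled in 1 country. One further Suffolk library, whose title and labels name different states, entered no comparison.

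The cervix is a muscular and fibrous canal lined by a folded, mucus-secreting epithelium. Oestrogen dominates the follicular phase, when the canal softens and mucus is thin and abundant, and progesterone dominates the luteal phase, when the canal is closed and mucus is thick. A piece of cervical tissue holds smooth muscle, connective tissue, glandular and stratified epithelium, vessels and immune cells. In bulk tissue, fewer cells of a type and less RNA per cell cannot be told apart.

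Total counts ranged from 12238996 to 31261671 per library, with a median of 17835128, so that 3 counts corresponded to between 0.0960 and 0.245 CPM. Compared with the mean profile of each breed in its state, itself left out, 83 libraries of ewes in a group resembled their own breed most and 109 resembled a breed of their own country. The Belclare induced follicular ewe 2 and the Suffolk natural follicular ewe 7 resembled NWS most. The Suffolk natural follicular ewe 6 resembled Fur most, and the Fur luteal ewe 6 and the NWS luteal ewe 8 resembled Belclare most. These libraries stayed in their labelled groups. COX-1 stood at 26.1 to 50.7 CPM in the 27 Fur ewes, at 36.3 and 31.5 CPM in the NWS natural follicular ewes 4 and 10, and at 764 CPM or more in the other 85 ewes. Of the genes used as smooth muscle markers, ACTG2 and DES were at 1 CPM or more in every ewe and ACTC1, a heart muscle actin, in 47. Of the mucous epithelium markers, MUC1, CDH1, MUC16 and WFDC2 were so in every ewe, MUC5B in 111 and MUC5AC in 109.

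The 100 genes were not, as a rule, near absent in 1 breed throughout. Only 1 gene was steady, meaning that in each of the 3 states every ewe of its highest breed stood above every ewe of its lowest breed. In 32 genes a single ewe held 50% or more of the summed CPM of the highest breed. In a further 41 genes fewer than 50% of the ewes of the highest breed stood above the highest ewe of the lowest breed, and these are called few-ewe genes. Such a gene may be on in every ewe of its highest breed when a few ewes of the lowest breed reach the same range, as PCP4 was. The remaining 26 genes were mixed. Across all 15076 ranked genes, 53 (0.352%) had no overlap between their highest and lowest breed in all 3 states, and 1 of these was among the 100. No overlap in at least 1 state was seen for 23 of the 100 genes and for 9.45% of all ranked genes. These shares use the values that chose the genes and are given without a reading.

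Absence was also partial. Fur was the lowest breed for 34 genes, Suffolk for 28, NWS for 21 and Belclare for 17. Belclare was the highest breed for 42, Fur for 24, Suffolk for 21 and NWS for 13. The lowest level was under 0.1 CPM for 22 genes, under 0.5 CPM for 51 and at 1 CPM or more for 32. Every ewe of the lowest breed was at 3 counts or fewer for 6 genes, and no ewe of it reached 1 CPM for 31. In 53 genes 50% or more of the ewes of the highest breed reached 1 CPM, and in 18 all of them did. No gene was at 1 CPM or more in every ewe of its highest breed while under 1 CPM in every ewe of its lowest. Only 3 genes had 1 breed under 0.5 CPM and the other 3 breeds at 1 CPM or more. They were ENSOARG00000002193, ENSOARG00000009308 and ENSOARG00000014971, each with Fur lowest. In 15 genes a single breed was at 1 CPM or more and the other 3 were under 0.5 CPM.

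The same breed came highest in all 3 states for 39 genes, the same breed came lowest in all 3 for 33, and both held for 14. In 33 genes a single state supplied 80% or more of the sum of the 3 state means in the highest breed. That state was the luteal phase for 16 genes, the natural follicular phase for 16 and the induced follicular phase for 1. When the highest ewe of the highest breed was left out of each gene, 46 of the 100 kept a ratio at or above that of the last gene of the list. Of the 32 single-ewe genes, 5 did so.

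**Figure D1:**
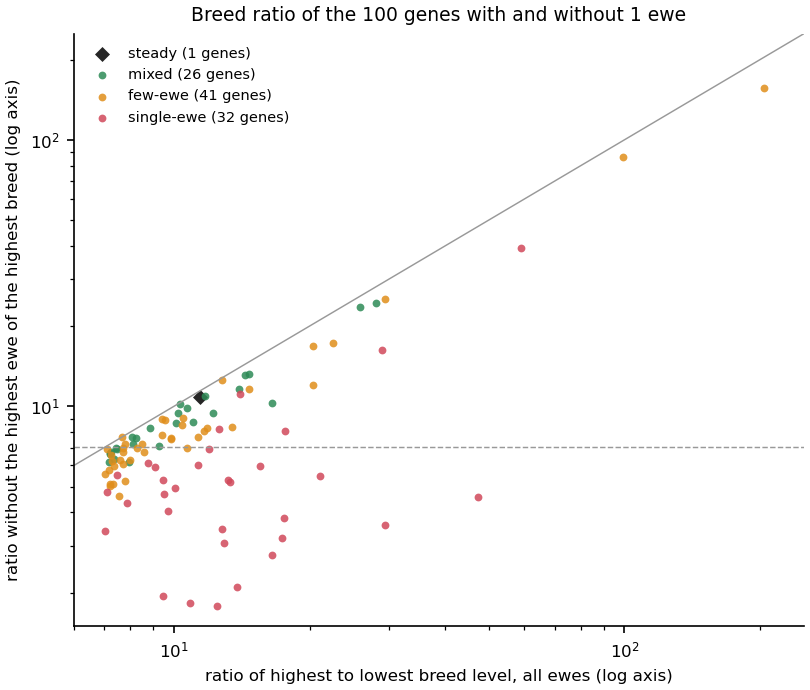
Ratio of the highest to the lowest breed level of each of the 100 genes over all ewes (horizontal, log axis) and without the highest ewe of the highest breed (vertical, log axis), coloured by class. The solid line marks equal ratios and the dashed line the ratio of the last gene of the list, below which 54 genes fall.

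The steady gene was ENSOARG00000000021, for which the sources used here give no symbol. In Fur its lowest, median and highest CPM were 16.6, 24.6 and 30.9 in the induced follicular phase, 16.3, 27.1 and 32.9 in the natural follicular phase, and 23.9, 29.0 and 67.3 in the luteal phase. In Belclare, the lowest breed, they were 0.207, 0.598 and 9.14, then 0.0722, 0.521 and 8.39, then 0.229, 0.460 and 10.8. The 27 Fur ewes were all on, meaning at 1 CPM or more, and all stood above the highest Belclare ewe. The gene was also on in 8 of 30 Belclare, 15 of 29 Suffolk and 11 of 28 NWS ewes. No ewe of the series lay between 2.16 and 4.90 CPM, with 59 ewes above this gap, of which 8 were Belclare, 13 Suffolk, 27 Fur and 11 NWS. The NWS natural follicular ewes 4 and 10 had 31.6 CPM each, the highest values among the 10 NWS ewes of that state. The breed levels were 28.4 CPM in Fur, 10.5 in NWS, 8.18 in Suffolk and 2.40 in Belclare. Neither the phase nor the cycle test, described below, called it in Fur.

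**Figure D2:**
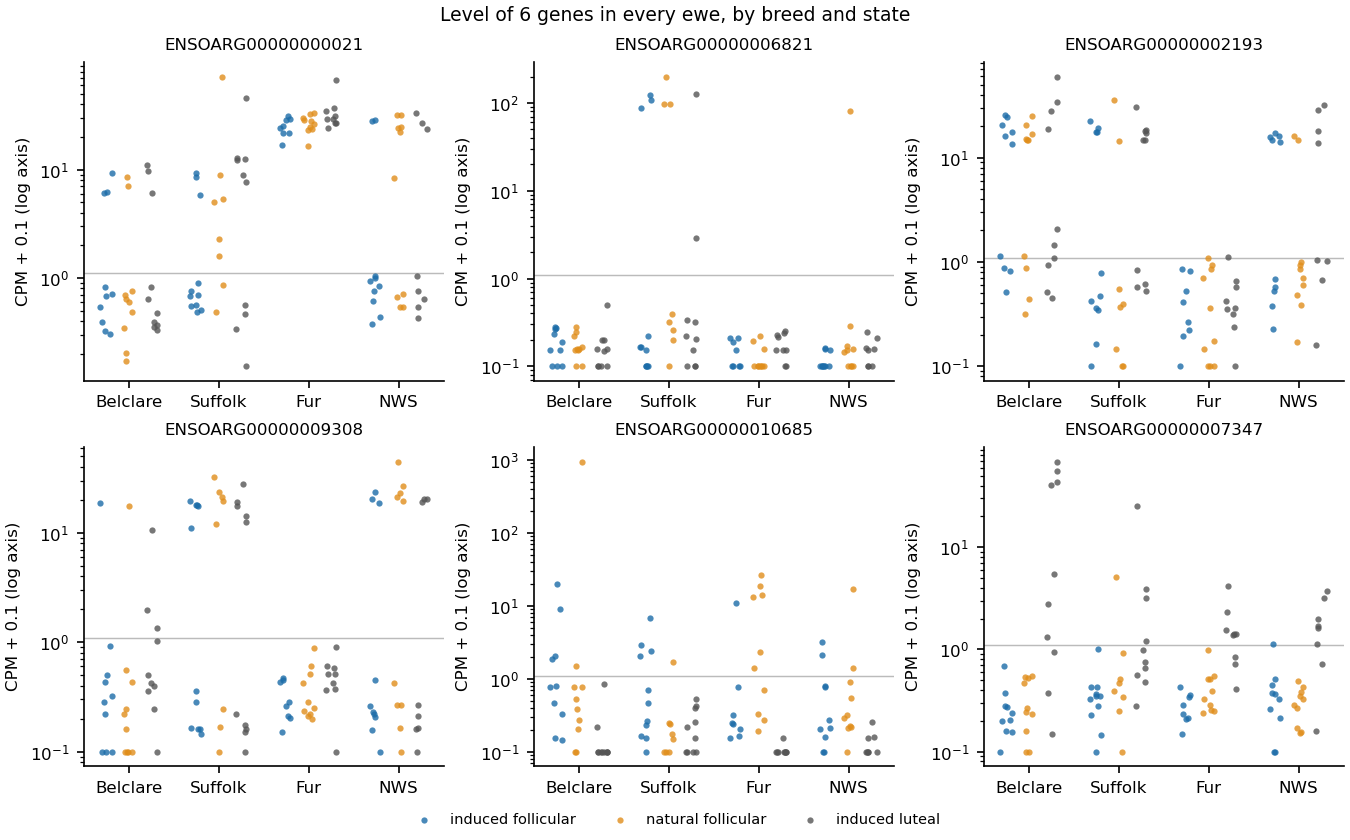
CPM plus 0.1 (log axis) of 6 genes in each ewe by breed, with 1 point per ewe and colour for the state. The grey line marks 1 CPM, and in the first 4 panels most ewes lie either near the bottom or in a high band, with all 27 Fur ewes in the high band of ENSOARG00000000021 and none in those of the next 3 genes.

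Ewes fell into a high and a low band for 7 genes, where 2 neighbouring ewes in order of level differed by 4-fold or more (on CPM plus 0.1) with at least 5 ewes on each side. These 7 were picked after their values were seen. ENSOARG00000006821 had the largest breed ratio of the list, 204. It stood at 80.7 CPM or more in 8 ewes, 7 Suffolk and 1 NWS, and at 2.78 CPM or less in the other ewes. Its Suffolk medians were 0.0640, 0.257 and 0.112 CPM in the 3 states, so that the Suffolk level of 30.5 CPM came from 7 of 29 ewes. The high ewes came from all 3 states, and the highest Fur ewe had 0.156 CPM.

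ENSOARG00000002193 was high in 39 ewes, of which 16 were Belclare, 12 Suffolk and 11 NWS, at 13.4 CPM or more. The other ewes were at 1.95 CPM or less, and the highest of the 27 Fur ewes had 1.01 CPM. ENSOARG00000009308 was high in 29 ewes, of which 15 were Suffolk, 11 NWS and 3 Belclare, at 10.5 CPM or more. The highest Fur ewe had 0.813 CPM for this gene. Both genes had high and low ewes in every state of the 3 breeds that carried the high band.

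ENSOARG00000012206 was high in 7 Belclare and 4 NWS ewes, at 8.66 CPM or more. Its highest value was 0.373 CPM in Suffolk and 0.533 CPM in Fur. ENSOARG00000006223 stood at 1.82 CPM or more in 18 ewes, of which 9 were Belclare, 8 NWS and 1 Suffolk, and at 0.107 CPM or less elsewhere. ENSOARG00000000407 stood at 28.3 CPM or more in 8 NWS ewes, while a middle band reached 6.54 CPM in Suffolk. Its highest Belclare value was 0.222 CPM. The seventh gene, ENSOARG00000007347, was high in luteal ewes and is described with the phase test. For all 7 of these genes the high band held no Fur ewe, and the NWS natural follicular ewes 4 and 10 were at 0.382 CPM or less.

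In 26 of the 100 genes both Norwegian levels stood above both Irish levels, and in 27 both Irish levels stood above both Norwegian levels. The 26 held the steady gene, 13 mixed, 11 few-ewe and 1 single-ewe gene. The single-ewe gene, ENSOARG00000017598, had a level of only 0.00529 CPM in NWS and 0 in both Irish breeds. No overlap between highest and lowest breed in at least 1 state was seen for 18 of the 26 and for 9.45% of all ranked genes. These shares use the values that chose the genes and are given without a reading. Among the 26 were 2 muscle actins, ACTG2 of smooth muscle and ACTC1 of heart muscle. They also held PCP4, a small calmodulin-binding protein, PNCK, a calmodulin-dependent kinase of pregnancy, and PI16, a secreted protein found on fibroblasts.

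PCP4 had breed levels of 29.9 CPM in NWS, 29.4 in Fur, 3.46 in Belclare and 2.24 in Suffolk. Its lowest Fur ewe had 5.89 CPM and its lowest NWS ewe 5.73 CPM, so that all ewes of both Norwegian breeds were on, against 8 of 30 Belclare and 10 of 29 Suffolk ewes. The Irish medians lay between 0.111 and 1.48 CPM over the 6 groups. The highest Irish ewe, with 31.7 CPM, was the Belclare induced follicular ewe 2, and the highest ewe of all, with 182 CPM, was the NWS natural follicular ewe 5. PNCK was on in 25 of 27 Fur and 27 of 28 NWS ewes, against 4 Belclare and 2 Suffolk ewes. Its medians ran from 3.69 to 6.46 CPM in the 6 Norwegian groups and from 0.0320 to 0.349 CPM in the 6 Irish groups.

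ACTG2 was on in every ewe, with levels of 1796 CPM in NWS, 1750 in Fur, 450 in Belclare and 252 in Suffolk. In the induced follicular phase its lowest, median and highest CPM were 924, 1882 and 4308 in Fur, 883, 2329 and 3778 in NWS, 42.2, 80.1 and 4712 in Belclare and 10.9, 111 and 260 in Suffolk. The lowest Norwegian ewe of this state stood above every Irish ewe of it except the Belclare ewe 2. The next Belclare ewe had 292 CPM. ACTC1 had levels of 6.90 CPM in NWS, 5.13 in Fur, 0.929 in Suffolk and 0.809 in Belclare, and 19 ewes of each Norwegian breed were on. Actin genes are close copies of each other, so their counts depend on how shared reads were assigned. PI16 was on in all ewes of both Norwegian breeds and in 21 Belclare and 19 Suffolk ewes, with levels of 26.9 CPM in Fur, 26.8 in NWS, 4.98 in Belclare and 3.41 in Suffolk.

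The unnamed gene ENSOARG00000003044 had the same order, at 61.8 CPM in NWS, 57.4 in Fur, 8.65 in Belclare and 5.18 in Suffolk. ENSOARG00000013216 was on in 22 Fur and 25 NWS ewes, in 1 Suffolk ewe and in no Belclare ewe. ENSOARG00000007731 was on in all ewes of both Norwegian breeds and in 6 ewes of each Irish breed. ENSOARG00000014816 was lower, with a highest median of 1.29 CPM in Fur and Belclare and Suffolk medians of 0.0255 CPM or less.

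DES (desmin, the intermediate filament of muscle) is not among the 100 and moved with these genes. Its medians lay between 1787 and 3320 CPM in the 6 Norwegian groups and between 121 and 463 CPM in the 6 Irish groups. The other genes used as smooth muscle markers, ACTG2 and the heart muscle actin ACTC1, are themselves among the 100 genes. The Belclare induced follicular ewe 2 reached 6623 CPM of DES, against 469 CPM in the next ewe of its group, and it was the highest Belclare ewe for 16 of the 26 genes. Within the Irish breeds, each gene that was on in some ewes and not in others gave 1 comparison per breed. In all 41 of these comparisons, some with as few as 1 ewe on, the median of DES was higher in the ewes that were on. The comparisons share the same ewes and are not independent of each other. The Belclare ewe at 6623 CPM of DES was among the on ewes in every Belclare comparison. For PCP4 in Belclare the DES median was 1403 CPM in the 8 ewes that were on and 150 CPM in the other 22. For the steady gene, ENSOARG00000000021, the same medians in Belclare were 313 and 237 CPM. The part of muscle content in these breed levels was not tested.

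**Figure D3:**
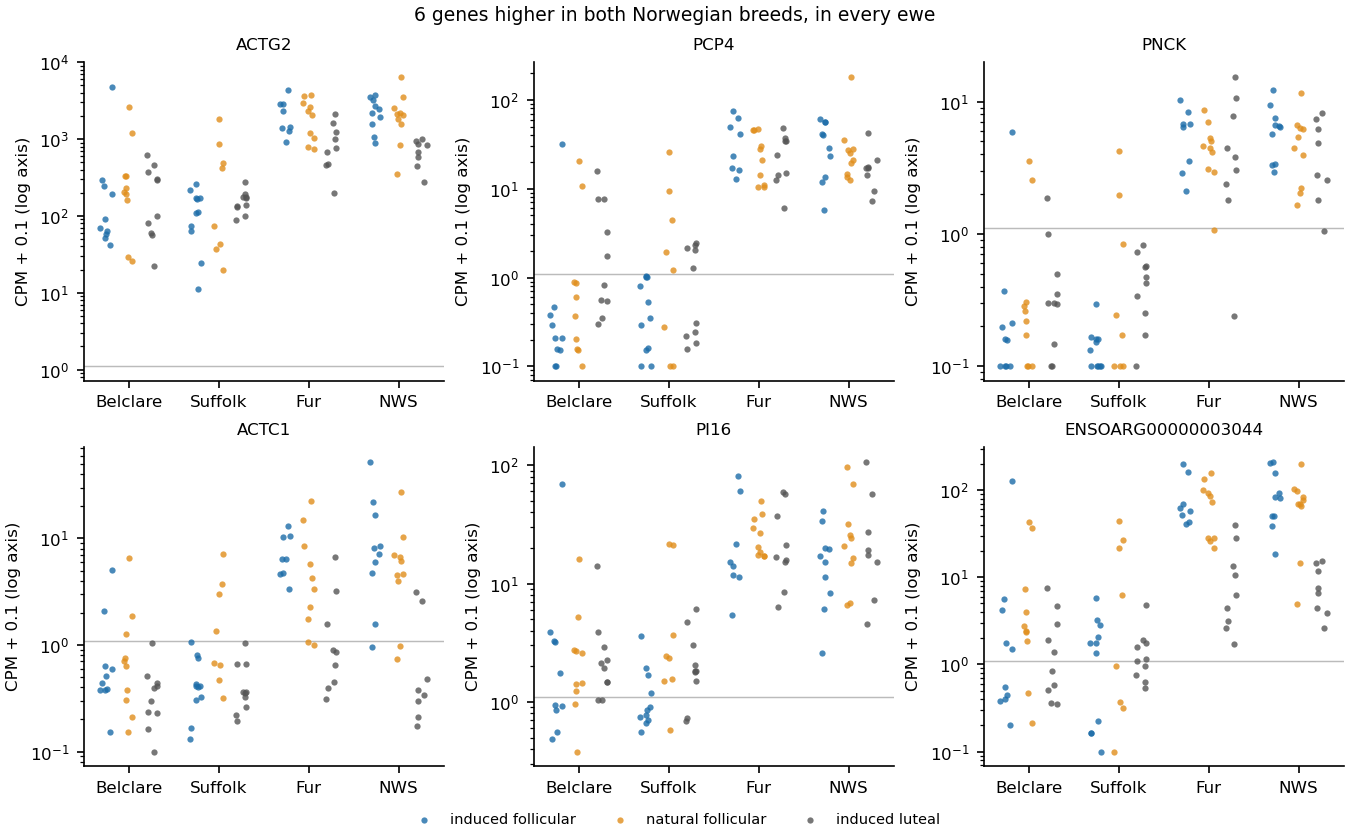
CPM plus 0.1 (log axis) of 6 genes in each ewe by breed, with 1 point per ewe, colour for the state and a grey line at 1 CPM. Fur and NWS ewes sit above most Belclare and Suffolk ewes, and the single high Belclare induced follicular ewe is the same animal in the 6 panels.

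The named genes whose highest breed was Suffolk or Belclare have roles in mucus, acute-phase response, immunity, hormone response, lipid handling and transport. MUC5AC, a gel-forming mucin, had levels of 34.9 CPM in Suffolk, 22.8 in Belclare, 8.13 in NWS and 3.74 in Fur. A single Suffolk induced follicular ewe at 611 CPM held 55.4% of the Suffolk sum, the next ewe of its group had 59.0 CPM, and the group median was 12.9 CPM. The ratio of 9.10 fell to 5.95 without that ewe. The Suffolk medians of the 3 states, 12.9, 8.33 and 13.0 CPM, stood above the Fur medians of 4.89, 2.97 and 1.66 CPM, while the ewes of both breeds overlapped. Of the mucous epithelium markers outside the 100 genes, MUC1 (916, 825, 456 and 451 CPM in Belclare, Suffolk, Fur and NWS), MUC16, CDH1 and WFDC2 also had both Irish levels above both Norwegian levels. The part of epithelial content was not tested.

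SAA1, an acute-phase serum amyloid A protein, was a mixed gene with levels of 7.41 CPM in Belclare, 3.04 in Suffolk, 0.851 in NWS and 0.750 in Fur. It was on in 26 of 30 Belclare, 15 of 29 Suffolk, 7 of 27 Fur and 9 of 28 NWS ewes. In the induced follicular phase the lowest, median and highest CPM were 2.79, 10.3 and 22.3 in Belclare and 0.183, 0.422 and 1.54 in Fur, which did not overlap. The SAA genes are close copies, so reads may have been split among them. IGHE, the heavy chain of immunoglobulin E, was on in 19 Belclare, 22 Suffolk, 10 Fur and 4 NWS ewes, with levels of 3.67, 2.43, 0.776 and 0.417 CPM. The plasma cell transcript IGHG3, at its more abundant identifier, had the same division, at 3331 and 3850 CPM in Belclare and Suffolk and at 944 and 1137 CPM in Fur and NWS.

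OXTR, the oxytocin receptor, had levels of 44.6 CPM in Suffolk, 9.43 in Belclare, 4.75 in NWS and 4.65 in Fur. In the natural follicular phase its lowest, median and highest values were 0.433, 24.3 and 202 CPM in Suffolk and 0.673, 4.31 and 25.0 CPM in Fur. In the luteal phase the medians were 1.06, 0.442, 0.535 and 0.229 CPM in Suffolk, Belclare, Fur and NWS, with 1 Suffolk luteal ewe at 230 CPM and the next at 9.29 CPM. FXYD4, a regulator of the sodium pump, had levels of 11.1 CPM in Suffolk, 6.53 in Belclare, 2.07 in Fur and 1.38 in NWS, with 1 Suffolk natural follicular ewe at 113.9 CPM.

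PRSS16 (a serine protease of thymic epithelium), PLA1A (a phosphatidylserine phospholipase) and ELOVL2 (an elongase of very long polyunsaturated fatty acids) rested on few ewes. In Belclare, Suffolk, Fur and NWS the levels of PRSS16 were 6.24, 98.6, 11.1 and 37.8 CPM, those of PLA1A 4.08, 28.7, 2.08 and 5.65 CPM, and those of ELOVL2 4.90, 15.1, 1.03 and 4.37 CPM, so that PRSS16 was lowest in Belclare and PLA1A was lower in Belclare than in NWS. The Suffolk natural follicular ewe 4 had 1718 CPM of PRSS16, against 152 CPM in the next ewe of its group and a group median of 14.9 CPM. This ewe also had 429 CPM of PLA1A, against 49.0 CPM next and a median of 9.37 CPM. The highest Suffolk value of ELOVL2 was 151 CPM, with 39.1 CPM next in its group and a median of 7.74 CPM. The ratios of the 3 genes were 15.6, 13.2 and 13.4, and without the highest Suffolk ewe they were 5.98, 5.30 and 8.37. PLA1A was on in 29 of 30 Belclare ewes, all 29 Suffolk ewes, 18 Fur ewes and 19 NWS ewes.

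The high values of these genes were shared by an ewe of another breed. The NWS induced follicular ewe 9 had 1078 CPM of PRSS16, 115 CPM of PLA1A and 104 CPM of ELOVL2, where the next NWS ewes had 12.9, 9.89 and 10.4 CPM. It was the highest NWS ewe for 17 of the 100 genes. For 9 of these it exceeded the next NWS ewe 5-fold or more, and Suffolk was the highest breed of 8 of the 9. The ninth, ENSOARG00000014971, had 346 CPM in this ewe and at most 0.767 CPM in every other NWS ewe, so that 99.3% of the NWS sum came from 1 ewe. ENSOARG00000004021 belonged to the same set, with 1039 CPM in this NWS ewe and 29.9 CPM in the next. In Suffolk it was broader, on in 21 of 29 ewes, with medians of 101, 135 and 0.802 CPM in the induced follicular, natural follicular and luteal states.

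The 32 single-ewe genes were concentrated in few animals. The Belclare natural follicular ewe 1 was the top ewe of 13 of them, the Suffolk natural follicular ewe 4 of 6, and the Suffolk induced follicular ewe 2 of 4. The remaining 9 were divided among 7 ewes, of which no ewe held more than 2. The share of the breed sum held by the top ewe ran from 50.1% to 99.3%.

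In the Belclare natural follicular ewe 1, ENSOARG00000010685 stood at 936 CPM, with 1.37 CPM in the next ewe of its group and a median of 0.357 CPM. The ratio of the gene fell from 47.4 to 4.56 without this ewe. ENSOARG00000018701 stood at 503 CPM, against 0.919 CPM next, and ENSOARG00000012520 at 286 CPM, against 0.731 CPM next. ENSOARG00000016213, ENSOARG00000014843 and ENSOARG00000020121 stood at 76.7, 129 and 70.8 CPM in the same ewe, against 0.594, 0.433 and 1.29 CPM in the next. In Fur, where the 13 genes were not led by this animal, the natural follicular ewe 10 was the highest Fur ewe for 8 of them. In NWS the natural follicular ewe 7 was highest for 7, and in Suffolk the induced follicular ewe 6 for 7.

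Marker levels of these ewes are given beside their genes. The Belclare natural follicular ewe 1 had the highest sum of cornified epithelium markers (KRT1, KRT16, DSC1, OVOL1) of all ewes, 245 CPM, against 33.9 to 54.9 CPM in the other 9 ewes of its group. Its smooth muscle, mucous and stromal sums lay within the range of its group. The Suffolk natural follicular ewe 4 had the lowest cornified sum (8.47 CPM) and the lowest neutrophil sum (4.33 CPM) of all ewes, and the third highest stromal sum (2948 CPM). It also had 8640 CPM of B and plasma cell markers, against at most 3164 CPM in the other ewes of its group, and 109.2 CPM of T and NK cell markers, against at most 54.6 CPM. Its smooth muscle sum of 69.4 CPM was the lowest of its group, where the next had 80.6 CPM. The Suffolk induced follicular ewe 2, which led MUC5AC, had 48020 CPM of B and plasma cell markers, against 1045 to 5630 CPM in the other ewes of its group. Total counts of these 3 libraries, 18011469, 20773445 and 15360643, lay within the range of the others. The part of tissue composition in the single-ewe values was not tested.

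The Fur luteal ewe 8 was the highest of all ewes for 12 of the genes, the largest number after the 13 of the Belclare natural follicular ewe 1. It had the third highest smooth muscle sum, 8829 CPM (2 of the 3 summed genes, ACTG2 and ACTC1, being among the 100), and the lowest mucous epithelium, B and plasma cell and T and NK cell sums of all ewes. For ENSOARG00000017490 this ewe had 284 CPM, against 82.1 CPM in the next Fur luteal ewe and a median of 51.3 CPM.

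Among the remaining large ratios, ENSOARG00000017598 was at 0 in every ewe of Belclare and Suffolk, which allows up to 0.245 CPM in the shallowest library, and was present in 2 Fur luteal ewes at 38.9 and 36.5 CPM. ENSOARG00000015120 was on in 17 of 27 Fur ewes and in no NWS ewe, with Fur medians of 1.34, 1.02 and 3.69 CPM. ENSOARG00000009902 was on in 17 Fur ewes, and its Fur luteal ewes ran from 4.51 to 73.1 CPM without overlap with the NWS luteal ewes, of which the highest had 1.57 CPM. ENSOARG00000019883 was on in 12 Fur ewes and in no NWS ewe. ENSOARG00000000534 was on in 12 of 28 NWS ewes, 2 Suffolk ewes and no Belclare or Fur ewe. ENSOARG00000011714 was on in 5 NWS ewes and in no Suffolk ewe, where its highest value was 0.163 CPM.

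ENSOARG00000002631 was on in all 30 Belclare and all 29 Suffolk ewes, in 14 Fur and in 21 NWS ewes, with levels of 23.8, 14.3, 1.35 and 4.72 CPM. Its Belclare luteal ewes ran from 4.09 to 289 CPM and its Fur luteal ewes from 0 to 1.84 CPM. ENSOARG00000016475 was on in 28 Belclare and 8 NWS ewes, with levels of 7.89 and 0.977 CPM. ENSOARG00000003250 was on in 16 Suffolk, 15 NWS, 7 Fur and 3 Belclare ewes. ENSOARG00000000101 reached 353 CPM in 1 Suffolk induced follicular ewe, with 31.2 CPM next, and was on in 21 Suffolk ewes.

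Pairs of genes were compared for their on and off ewes. In 31 pairs the calls matched in 95% or more of the ewes, and 19 of these had at least 3 ewes on in both and at least 3 off in both. The largest set was formed by genes that were on in nearly all ewes, with ENSOARG00000016098, ENSOARG00000017214, ENSOARG00000006959 and ACTG2 on in every ewe and MUC5AC on in 109. Of the informative pairs, ENSOARG00000003615 and ENSOARG00000003494 had identical calls, both on in the same 6 ewes, 4 Belclare and 2 Suffolk. ENSOARG00000010685 and ENSOARG00000018701 were both on in 20 ewes, with 24 on in either. ENSOARG00000014971 and ENSOARG00000009436 were both on in 6 ewes, with 8 on in either. Identifiers of this annotation may be parts or copies of 1 gene, and their positions were not analysed here.

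The rule averaged the 3 states and did not rank by differences between them, although a high value in 1 state raises the average. State differences were tested within each breed by edgeR's quasi-likelihood test, called at an adjusted p under 0.05 and more than 1.5-fold. The test covered all genes with 1 CPM or more in at least 10 libraries. Of the 100 genes, 87 passed this filter. The phase test compared the induced luteal with the induced follicular ewes. In their highest breed, 38 of the 87 tested genes were called, 20 higher and 18 lower in the luteal phase. By breed these were 21 of 33 genes in Belclare, 8 of 23 in Fur, 5 of 19 in Suffolk and 4 of 12 in NWS. Among all 15649 genes tested, 24.4%, 23.5%, 18.2% and 22.8% were called in those breeds. The called genes were 12 higher and 9 lower in Belclare, where 11.2% and 13.2% of all genes were called higher and lower. In Fur, 7 were higher and 1 lower, against 11.6% and 11.8% of all genes. In Suffolk, 0 were higher and 5 lower, against 8.94% and 9.25%, and in NWS, 1 was higher and 3 lower, against 12.2% and 10.6%. The median log2 phase change of the 87 genes was -0.122 in Belclare, -0.093 in Suffolk, -0.088 in Fur and -0.326 in NWS, against medians of all genes between -0.008 and 0.010. The highest breed was chosen by a mean over states that a high value in 1 state raises. The counts, changes and p-values in that breed are therefore not independent of the rule. The ratio used neither of the 2 breeds between highest and lowest. In these, 25 of the 38 genes (65.8%) were called in the same direction in at least 1 breed and 17 (44.7%) in both, while 1 gene was called the opposite way. Among the 3958 of all tested genes that were called in their own highest breed, the shares were 73.8% and 41.7%. The 25 comprised 10 of the 20 genes higher in the luteal phase (69.3% of all such genes) and 15 of the 18 genes lower in it (79.1%). Some of these calls rested mainly on 1 high ewe, as those of PRSS16 described below.

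The Belclare genes higher in the luteal phase had the smallest p-values of the list. High luteal values also raised the Belclare level that chose these genes, so their p-values in Belclare are not independent of the rule. Where the lower of the 2 groups averaged 3 counts per library or fewer, the fitted change depends on the prior count and is no measure or bound of size, so the call is given without a fold. The folds of ENSOARG00000007347 and ENSOARG00000016824 in Belclare rest on averages of 3.3 and 3.1 counts in the lower group. ENSOARG00000007347 had Belclare luteal values of 0.0498, 4.04 and 68.4 CPM (lowest, median and highest), while the highest induced follicular ewe had 0.588 CPM. Its log2 phase change was 6.75 (SE 0.83, edgeR adjusted p = 2.2e-10) in Belclare and 3.60, 2.83 and 2.39 in Suffolk, Fur and NWS, called in all 4 breeds. ENSOARG00000003684 rose by 5.64 (SE 0.77) on the log2 scale in Belclare and was called higher in all 4 breeds as well, with luteal medians of 8.44, 0.482, 0.910 and 1.14 CPM in Belclare, Suffolk, Fur and NWS. ENSOARG00000012969 rose by 5.26 in Belclare and 3.29 in Suffolk on that scale and was called higher in Fur and NWS. ENSOARG00000007166 rose in Belclare, where its luteal values were 0, 1.86 and 22.0 CPM and its highest induced follicular ewe had 0.181 CPM. ENSOARG00000000359 rose there too, with luteal values of 0.0498, 4.604 and 38.0 CPM and a highest induced follicular ewe at 0.722 CPM, and both genes were called in 2 other breeds. In these 5 genes 95.2% to 98.8% of the Belclare level came from the luteal phase, so that their breed ratio was a ratio between luteal ewes. All 5 were few-ewe genes, and the same Belclare luteal ewes, 3, 4, 5, 6 and 10, were highest in each. In Suffolk the luteal ewe 6 was highest in each, with 526 counts of ENSOARG00000007347 against 62 in the next. The 5 rises are therefore not independent of each other.

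The genes lower in the luteal phase included ENSOARG00000016824, with Belclare induced follicular values of 0, 16.9 and 202 CPM (lowest, median and highest) and luteal values of 0, 0.159 and 0.699 CPM. Its log2 phase change was -7.97 (SE 1.40, edgeR adjusted p = 2.5e-06) in Belclare and -4.11 in NWS, and it was called lower in these breeds and in Fur. ENSOARG00000008316 and ENSOARG00000020466 were called lower in all 4 breeds. The highest luteal ewe of ENSOARG00000008316 had 0.198 CPM in Belclare, and that of ENSOARG00000020466 had 0.0499 CPM, which is 1 read. ENSOARG00000018701, led by 1 natural follicular ewe that the phase test does not contain, was called lower in all 4 breeds, with Belclare medians of 0.711 CPM in the induced follicular and 0 CPM in the luteal phase.

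**Figure D4:**
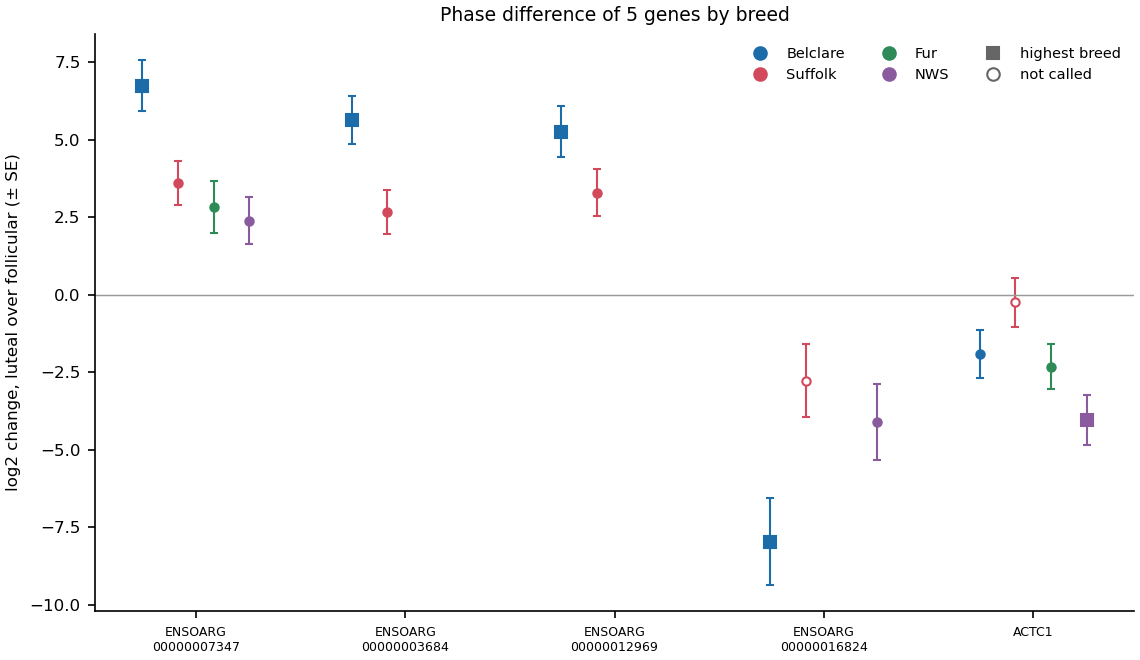
Log2 change of the luteal over the induced follicular phase in each breed (points, with bars of 1 SE of the edgeR fit) for 5 of the called genes of smallest p, with points left out where the lower group averaged 3 counts per library or fewer. Squares mark the breed in which the gene was highest and open symbols changes that were not called; the 3 genes on the left rose by 5.26 to 6.75 in Belclare, and ENSOARG00000016824 and ACTC1 were lower in the luteal phase in their highest breed.

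Of the named genes, ACTC1 fell by 4.05 (SE 0.81) on the log2 scale in NWS, where its median went from 7.52 to 0.257 CPM, and it was also called lower in Fur and Belclare. ACTG2 fell by 1.92 (SE 0.71) in NWS, with medians of 2329 and 765 CPM, and by 1.64 in Belclare. The Belclare induced follicular ewe 2 had 102630 counts of ACTG2, against 6033 in the next ewe, and raised the fitted change there. The other Belclare ewes of the 2 phases overlapped, and the luteal ewes had 461 to 10644 counts. DES had medians of 3320 and 1787 CPM in the same NWS groups. The gene ENSOARG00000003044 fell by 3.78 (SE 0.92) in NWS and was called lower in Fur and Belclare too. Its Belclare induced follicular ewe 2 had 2739 counts, against 123 in the next ewe and 4 to 126 in the luteal ewes. The same ewe had 107 counts of ACTC1, against 44 in the next ewe and 0 to 19 in the luteal ewes. SAA1 fell by 2.70 (SE 0.67) in Belclare, with medians of 10.3 and 1.36 CPM, and by 2.33 in Suffolk. PRSS16 fell by 4.51 (SE 1.31) in Suffolk, with medians of 7.91 and 1.26 CPM, and was called lower in Fur and NWS. The Suffolk induced follicular ewes 3 and 11 had 5398 and 2043 counts of PRSS16, against 594 in the next ewe, and raised the fitted change. In Fur the induced follicular ewe 1 had 2154 counts, against 47 in the next, and the luteal ewes had 1 to 78. In NWS the induced follicular ewe 9 had 16713 counts, against 49 in the next, and the luteal ewes had 4 to 55. Apart from these ewes, the 2 phases overlapped in both Norwegian breeds. FXYD4 fell by 3.50 (SE 0.93) in Suffolk only among the 4 breeds, and whether its phase change differed between breeds was not tested. MUC5AC fell by 1.89 (SE 0.74, edgeR adjusted p = 0.036) in Suffolk, a change carried by the ewe at 611 CPM. Without that ewe and 4 other libraries that stood apart the log2 change was 0.22. With every ewe included, the group medians were 12.9 CPM in the induced follicular and 13.0 CPM in the luteal phase.

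OXTR had a log2 phase change of -0.36 in Suffolk, its highest breed, where 1 luteal ewe had 230 CPM, and was not called there. In Belclare, Fur and NWS it fell by 4.41, 3.92 and 3.64 and was called in each. PCP4, PI16 and PNCK were not called in their highest breeds, with log2 changes of -1.11 (SE 0.83), -0.21 (SE 0.67) and -0.22 (SE 0.71). PNCK was called higher in Suffolk, where its medians were 0.0320 and 0.349 CPM. PLA1A, ELOVL2 and IGHE were not called in their highest breeds, with log2 phase changes of -0.46, -0.90 and 1.19. The gene with opposite calls was ENSOARG00000006959, which rose by 2.20 in Belclare (medians of 243 and 1562 CPM) and fell by 1.99 in Fur, where the medians were 139 and 309 CPM and 1 induced follicular ewe had 10130 CPM.

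The cycle test compared natural with induced follicular ewes. Of the 87 genes, 4 were called in their highest breed, and 76 were called in no breed. The share of all genes called was 0.0128% in Belclare, 0.0383% in Suffolk, 2.51% in Fur (0.984% higher and 1.53% lower in the natural cycle) and 0.511% in NWS (0.281% higher and 0.23% lower). The 2 genes called in Belclare, ENSOARG00000018032 and ENSOARG00000014843, were the only ones of 15649 called there. High ewes of a single state raise the breed level that chose the genes and their highest breed. These cycle counts and the p-values in the highest breed are therefore not independent of the rule and are given without a reading. ENSOARG00000014843 had a log2 change of 4.77 that came from the ewe at 129 CPM, since the group medians were 0.174 CPM (induced) and 0.245 CPM (natural). Without 5 libraries that stood apart, this ewe among them, the log2 change was -1.39 and the call was lost, as it was by DESeq2, with each breed fitted alone and with the replicate number as a block. ENSOARG00000018032 rose by 4.69 (SE 0.89, edgeR adjusted p = 0.011) with natural follicular values of 0.660, 1.49 and 310 CPM, 50.7 CPM in the second highest ewe, and an induced median of 1.12 CPM. It was also called higher in Fur, by 4.76 on that scale, where the 2 highest natural ewes had 168 and 80.5 CPM. Its Belclare call was lost with each breed fitted alone (4.69, edgeR adjusted p = 0.9999) and with the block (3.31, edgeR adjusted p = 0.9999). ENSOARG00000021086 rose by 4.52 (SE 1.32) in Fur, with natural values of 0, 0.330 and 22.8 CPM and an induced median of 0.0277 CPM, and was not called by DESeq2 (4.56, adjusted p = 0.106). ENSOARG00000012206, with 2 bands of ewes, was called lower in NWS, where the natural ewes were at 0.2501 CPM or less and 2 of the 10 induced ewes at 21.4 CPM. That call was lost with each breed fitted alone (edgeR adjusted p = 0.161) and with the block (edgeR adjusted p = 0.0652).

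At the end of the list the ratios were close together. The last 3 genes, ENSOARG00000008316, ENSOARG00000020498 and ENSOARG00000020466, had ratios of 7.09, 7.03 and 7.03. The next 3, ENSOARG00000004279, ENSOARG00000014922 and ENSOARG00000001189, had ratios of 7.02, 7.01 and 6.99.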

How the data were processed

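Cervical RNA of ewes was sequenced after poly(A) selection with a stranded kit, 1 library per ewe. The authors trimmed the reads, mapped them with STAR 2.6.1b to the sheep assembly Oar_v3.1 with at most 2 mismatches, and deposited raw counts of uniquely mapped read pairs per Ensembl gene from featureCounts (Subread 1.6.3), without normalization. Counting unique pairs lowers the counts of genes with close copies.

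CPM was computed from these counts and the total of each library. Groups were taken from the labels. One library was left out because its labels disagree, and 0 value columns went unused. State differences were tested with edgeR 4.0.16 in R 4.3.3 (quasi-likelihood, TMM, 12 breed and state groups in 1 fit) on 15649 genes with 1 CPM or more in at least 10 libraries, with Benjamini-Hochberg adjustment over all of them. A call required an adjusted p under 0.05 and more than 1.5-fold. DESeq2 1.42.0 was an alternative. In data simulated for the Belclare phase comparison with 15649 genes, 184 of 200 genes changed 4-fold were recovered, with 4 false calls. The changed genes were drawn at random from all tested genes, so these rates do not describe genes led by a single ewe. Nothing beyond a replicate number tells the ewes of a group apart, so p-values measure the spread between these libraries. No 2 libraries of a group were alike within counting noise (lowest chi-square per degree of freedom 15.4 over 490 pairs). Intervals and limits from counts cover counting error only.

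The genes, classes and lists were chosen with earlier results of these data known. Named were the 13 genes with a symbol in the supplementary tables, the 3 of largest ratio in each class and lowest breed, those at the limit of the list, those of smallest p in each test, and the largest set with matching on and off ewes. Sequences and positions were not analysed here.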

Additional observations from a re-analysis of the deposited data

Results flagged for a closer look

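Single ewes were compared with the others of their group for the named genes, in the groups of the highest breed of each gene. The scale was log2(CPM + 0.1), with Dixon's 95% limit. Groups of more than 10 ewes were not compared. That left out the Suffolk induced follicular group of 11 ewes, which held the highest MUC5AC ewe. Of 154 groups, 29 (18.8%) held an ewe past the limit, over 22 of 56 named genes, and on the CPM scale 76 groups did. Chance alone gives about 1 in 20 groups, but the genes were chosen by a ratio that a single high ewe raises, so an excess over that share follows from the choice and is not read. The Belclare natural follicular ewe 1 accounted for 10 of the 29.

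In that ewe the highest values of the group were 936.0 CPM for ENSOARG00000010685, 502.8 CPM for ENSOARG00000018701, 286.3 CPM for ENSOARG00000012520, 128.6 CPM for ENSOARG00000014843, 76.73 CPM for ENSOARG00000016213, 70.79 CPM for ENSOARG00000020121, 58.63 CPM for ENSOARG00000026869, 88.61 CPM for ENSOARG00000008316 and 21.65 CPM for ENSOARG00000020466. It was the lowest of its group for SAA1, at 1.277 CPM.

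Among the other Belclare ewes, the induced follicular group held high values of 3.981 CPM for ENSOARG00000018032, 0.722 CPM for ENSOARG00000000359 and 2.622 CPM for ENSOARG00000026869. The natural follicular group held 0.4878 CPM for ENSOARG00000000359 and 2.483 CPM for ENSOARG00000012969. The luteal group held 0.7485 CPM for ENSOARG00000010685 and 0.198 CPM for ENSOARG00000008316, which is 3 counts. For ENSOARG00000020466 it held 1 ewe at 0.0499 CPM, which is 1 read against 0 in the others and under the 3-count floor.

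In Suffolk, 1 luteal ewe had 127.2 CPM of ENSOARG00000006821 and the natural follicular ewe 4 had 114.5 CPM of ENSOARG00000009812. In NWS, 1 natural follicular ewe had 28.33 CPM of ENSOARG00000000407, another had 181.9 CPM of PCP4 and another 0.5496 CPM of ENSOARG00000014971, of which the induced follicular ewe 9 had 346.2 CPM. In Fur, the steady gene ENSOARG00000000021 had 1 low natural follicular ewe at 16.26 CPM and 1 high luteal ewe at 67.32 CPM. PNCK was low in 1 Fur natural follicular ewe, at 0.9694 CPM. A Fur luteal ewe was high at 10.01 CPM for ENSOARG00000014816. For ENSOARG00000021086 the value of 0.0592 CPM in 1 Fur luteal ewe is 1 read against 0 in the others, under the 3-count floor.

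The Suffolk library whose title and labels disagree lay above all 29 grouped Suffolk ewes for 5 of the 100 genes. These were ENSOARG00000009308 (33.47 CPM, highest other 32.06), ENSOARG00000017214 (51.67, 41.57), ENSOARG00000011684 (10.07, 8.346), ENSOARG00000009983 (6.759, 3.138) and ENSOARG00000020142 (1.885, 1.614).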

How the results depend on the processing

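Membership of the list depended on how breed levels were formed. Of the 100 genes, 57 were kept with an offset of 1 CPM, 59 with a highest level of 5 CPM or more, 48 with state medians in place of state means, and 46 passed the limit without their highest ewe (chosen after seeing the data). The other list settings kept 87 to 99. With 1 exceptional ewe allowed per breed and state, 11 genes were steady in place of 1, PCP4 and PNCK among them. The phase count ran from 35 to 46 over its 8 alternatives against 38, and 46 came without the filter, where all 100 genes were tested. The cycle count was 8 by DESeq2's Wald test, 1 with each breed fitted alone and 1 with the replicate number as a block, against 4, and it was 4 to 6 otherwise. The cycle change of ENSOARG00000014843 in Belclare reversed to -1.248 by DESeq2 and to -1.393 without 5 libraries that stood apart, and the phase change of MUC5AC in Suffolk reversed to 0.22 without them (a setting chosen after seeing the data). These 5 libraries include the highest ewe of each of these genes. Without them 36 phase calls were made, 33 of them among the 38. For the other changes the cause was not tested. Same-numbered samples did not deviate together (27 of 72 pairs with a correlation over 0.1, median 0.0404), so the numbers were not read as a pairing. With the block, 35 phase calls were made, 34 of them among the 38. Depth limited values under about 0.245 CPM, which are 3 counts in the shallowest library.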

Other observations

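A ranking by state medians brought up genes that the means had placed lower, and 52 of its top 100 were not among the 100 genes described. ENSOARG00000002875 had median-based levels of 35.0 CPM in Belclare and 0.0977 CPM in NWS, a ratio of 178, while its ratio by means was 2.25. It was on in 23 Belclare, 23 Suffolk, 10 Fur and 9 NWS ewes, and its highest NWS ewe had 122 CPM. ADAM7, a member of the ADAM family known from the epididymis, had median-based levels of 53.6 CPM in Belclare and 1.11 CPM in Suffolk, and was on in 26 Belclare, 11 Suffolk, 14 Fur and 7 NWS ewes. ENSOARG00000006903 stood at 42.8 CPM in Belclare and 0.821 CPM in Suffolk on the same scale, and was on in 15 Belclare, 11 Suffolk, 12 Fur and 7 NWS ewes. These genes were chosen by the medians given here, and no test was made.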
